A study of Mus musculus with 6 samples.

Results

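The genes described here build and regulate the microtubule skeleton of axons and growth cones, in 6 olfactory sensory neurons, each taken singly from the epithelium of the nose, where they detect odours. They were chosen by name: the alpha-, beta- and gamma-tubulin genes, the stathmins, the collapsin response mediator proteins (CRMPs, the Dpysl genes with Crmp1), 7 Map genes with Mapt, Marcks and Marcksl1, Gap43 and Dcx. Pseudogenes named -ps were left out, as was Gng8. This gave 38 of the 55341 genes listed, of which 31 had a count in at least 1 cell and 7 had none. Over all genes, 29.8% had a count in at least 1 cell.

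Each neuron came from a C57BL/6 mouse of 6 weeks, was frozen after a physiological recording, and was made into a CEL-Seq2 library of its own. They are called cells 1 to 6 below. No genotype or treatment separates the cells, which form 1 group. The labels name no animals, so the number of mice is unknown and differences between cells have no replicate check. No p-value is given, and every interval covers counting error only. Totals ran from 8613 counts in cell 1 and 11725 in cell 6 to 60902 in cell 4 and 122546 in cell 3, so that 1 count made 116 CPM, the count scaled by the library total, in cell 1 but 8.16 CPM in cell 3. Mitochondrial genes took between 4.40% (cell 4) and 14.4% (cell 1) of the counts. The cell type label matched the mature olfactory neuron markers, with 14 of 14 found and 8 present in all cells. They summed to between 22528 CPM in cell 4 and 40964 CPM in cell 3. In cell 2, however, gland and secretory markers summed to 32136 CPM, above the 23667 CPM of its mature neuron markers. Of 15 immature neuron markers that are no members, 6 were at 0 in all cells, among them Gng8, Neurod1 and Neurog1. The other 9 were found, with 181 counts and a summed median of 675 CPM. Lhx2 had 77 of these counts, Trib3 37, Hdac2 24 and Sox11 18. A count of 0 in all cells allows up to 11.5 CPM over the 6 cells.

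Microtubules are hollow polymers of alpha- and beta-tubulin pairs, and gamma-tubulin seeds new ones at centrosomes. Stathmins bind free tubulin pairs and promote the shrinking of microtubules, whereas microtubule-associated proteins (MAPs), tau and doublecortin bind the polymer and stabilise it. CRMPs, GAP-43 and the MARCKS proteins act in growth cones, the motile tips of extending axons. Olfactory neurons are replaced throughout life, and Gap43, Stmn1 and Crmp1 are known as markers of the immature stage, in which the axon grows towards the olfactory bulb.

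Tubulin isotypes differ mostly in the coding sequence for their C-terminal tails, which motor proteins and modifying enzymes read. The last 60 coding bases before the stop codon are shown for the beta-tubulins because they carry that difference and because they bear on how well the counts can be told apart. Positions are in GRCm38 with GENCODE M21 transcripts, each stretch lies within 1 exon, and sequences read 5′ to 3′ on the gene's strand. Capitals mark bases that did not match Tubb4b, the beta-tubulin with the most counts, in a pairwise alignment.
Tubb4b (chr2:25222311-25222370, minus strand): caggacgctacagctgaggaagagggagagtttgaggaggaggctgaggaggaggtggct
Tubb5 (chr17:35834985-35835044, minus strand): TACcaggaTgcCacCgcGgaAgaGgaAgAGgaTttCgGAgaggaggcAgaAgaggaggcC
Tubb3 (chr8:123421620-123421679, plus strand): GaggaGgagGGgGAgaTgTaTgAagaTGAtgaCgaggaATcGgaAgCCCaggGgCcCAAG
Tubb2a (chr13:34074471-34074530, minus strand): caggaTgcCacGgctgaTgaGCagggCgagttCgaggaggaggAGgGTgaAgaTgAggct
Tubb2b (chr13:34127474-34127533, minus strand): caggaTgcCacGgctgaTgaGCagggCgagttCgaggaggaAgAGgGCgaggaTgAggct
Tubb2a and Tubb2b each differed from Tubb4b at 15 bases, Tubb5 at 19 and Tubb3, the beta-tubulin typical of neurons, at 27.

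The alpha-tubulin counts were shared with pseudogenes. When the final 1000 bases of each transcript were cut into overlapping stretches of 50 bases (windows), 70.9% of those in Tuba1a, 85.9% in Tuba1b and 79.5% in Tuba1c occurred in the transcript of another gene. Counts from such windows cannot be assigned to 1 gene, and how reads with several alignments were counted is not stated. The 9 processed pseudogenes that held at least 5% of these windows had 660 counts over the 6 cells, against 590 for Tuba1a, Tuba1b and Tuba1c together. Gm7172 had 152 counts and Gm17383 had 125, more than Tuba1b with 111 (the pseudogenes were named after their values were seen). The pseudogenes held 54.1% of the joint counts in cell 3 and 56.0% in cell 4, but 14.3%, 24.4%, 34.1% and 35.9% in cells 1, 2, 5 and 6, where the joint counts were 7, 41, 41 and 39. Tubb4b was alike, with 60.99% of its windows shared and 127 counts beside 120 on 3 pseudogenes. Tubb5 and Tubb3 shared 0.210% and 0% of their windows, so their counts could be told apart. Stmn1 had 61 counts and its pseudogene Gm11223 had 16.

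**Figure D1:**
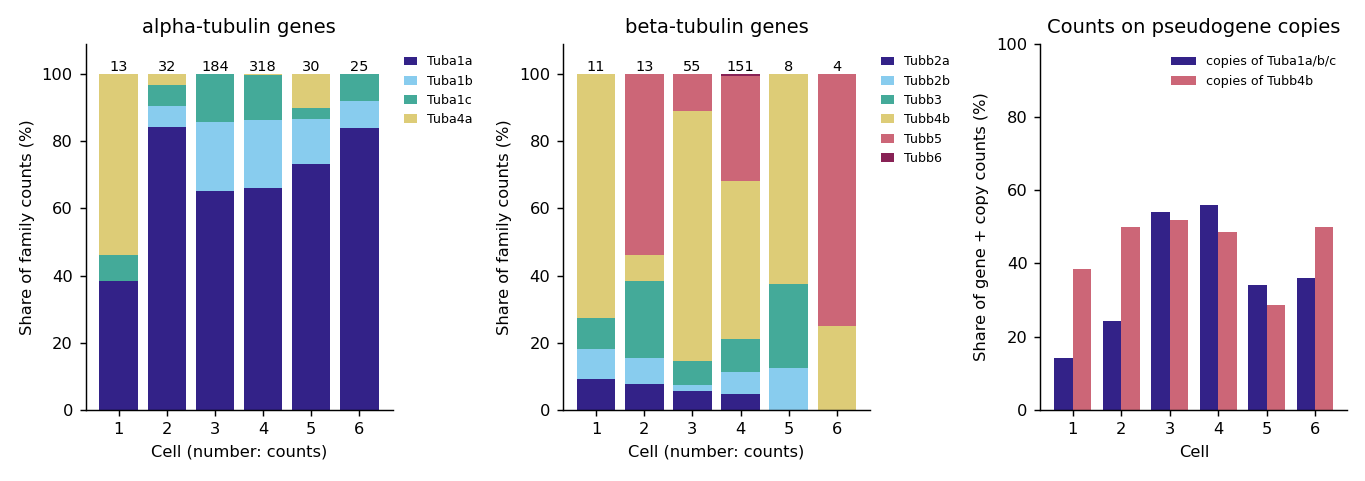
Share of alpha-tubulin counts (left) and beta-tubulin counts (middle) held by each gene in cells 1 to 6, with the number of family counts above each bar, and share of the counts of Tuba1a, Tuba1b and Tuba1c or of Tubb4b, with their processed pseudogenes, that lay on the pseudogenes (right). Tuba1a took the largest alpha share in cells 2 to 6, the beta shares differed between cells, and the pseudogenes held over 50% of the joint alpha counts in cells 3 and 4.

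Together the 38 genes had a median of 9572 CPM and took between 0.716% (cell 2) and 1.66% (cell 4) of all counts. The sums were 8824 CPM in cell 1 (95% Poisson interval 6952 to 11044), 7164 CPM in cell 2 (6298 to 8115) and 7736 CPM in cell 3 (7251 to 8244). Cells 4, 5 and 6 had 16551 CPM (15545 to 17605), 10699 CPM (9391 to 12139) and 10320 CPM (8563 to 12331). Cell 4 stood above the other 5 cells, with an interval that overlapped none of theirs. Of the 26 members with at least 10 counts over all cells, 8 were found in each of the 6 cells. Of all 5368 genes that reached this minimum, 15.4% were found in each, but these were not matched to the members for level. The 8 members were Map1b, Stmn4, Tuba1a, Stmn2, Tubb4b, Dcx, Dpysl2 and Tuba1c. Without cell 1 the number was 13, likewise without cell 6, and without both it was 18. At the depth of cell 1, between 14.3 and 21.3 members would be found per cell, fewest in cell 6 and most in cell 4.

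CEL-Seq2 counts 3′ ends, so that a count need not grow with transcript length. Genes are nevertheless ranked per kilobase (kb) of the main transcript only, and each median in plain CPM stands beside it. Per kb, Stmn4 led with a median level of 913 CPM per kb (1169.9 CPM), followed by Tuba1a with 542 CPM per kb (978 CPM), Stmn3 with 427 (485 CPM) and Stmn2 with 402 (834 CPM). Stmn1, Map1b and Tubb4b then lay close together at 193, 177 and 174 CPM per kb (205, 2089 and 278 CPM). This order rests on the division by length, which 3′ counting may not call for. In plain CPM Map1b led all members, ahead of Stmn4, Tuba1a, Stmn2 and Stmn3, and Stmn1 fell below Tubb4b.

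**Figure D2:**
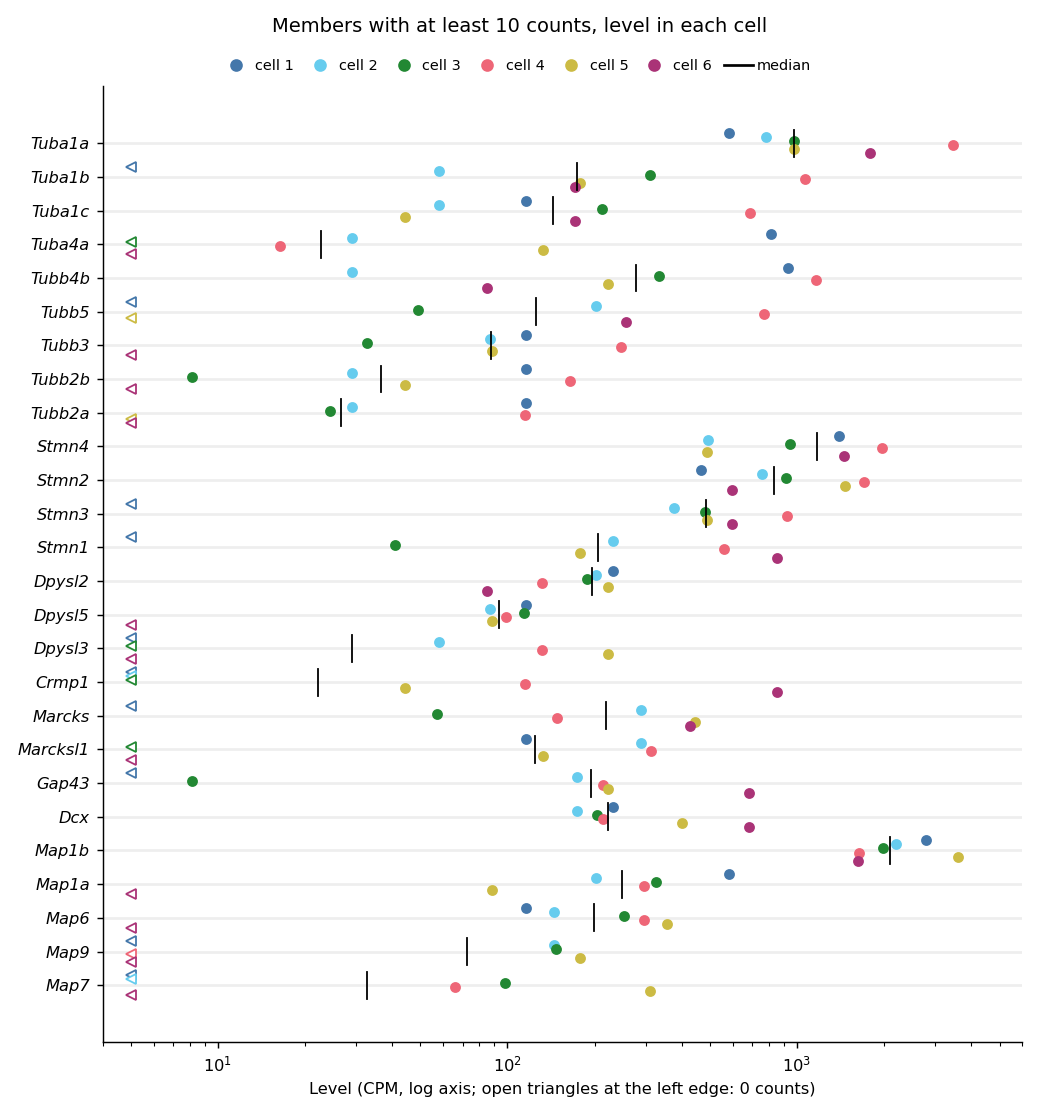
Level of each of the 26 members with at least 10 counts, in CPM on a log axis, with 1 point per cell, a black line at the median and open triangles at the left edge for 0 counts. Cell 4 was the highest of the 6 cells for Tuba1a, Tuba1b, Tuba1c, Tubb4b, Tubb5, Tubb3 and Tubb2b, and cell 6 for Crmp1, Gap43, Dcx and Stmn1.

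Alpha-tubulin was Tuba1a for the most part, and Tuba1a, Tuba1b and Tuba1c were each highest in cell 4, unlike Tuba4a. Tuba1a, an isotype of growing neurons, had 5, 27, 120, 210, 22 and 21 counts in cells 1 to 6, which gave 580.5, 783, 979, 3448, 977 and 1791 CPM. Cell 4 was highest and cell 6 next, while cells 2, 3 and 5 lay close together. Tuba1b, the isotype of most tissues, had 0, 2, 38, 65, 4 and 2 counts, or 0, 58.0, 310, 1067, 178 and 171 CPM. Tuba1c, a close relative, had 1, 2, 26, 42, 1 and 2 counts, or 116, 58.0, 212, 690, 44.4 and 171 CPM. Both were again highest in cell 4 and next in cell 3.

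The mix of these 3 genes was nearly equal in cells 3 and 4. Of the alpha-tubulin counts, cell 3 had 65.2% on Tuba1a (57.9% to 72.1% by the exact 95% Clopper-Pearson method) and cell 4 had 66.04% (60.5% to 71.2%). Tuba1b held 20.7% (15.05% to 27.2%) and 20.4% (16.1% to 25.3%), and Tuba1c 14.1% and 13.2%. Over the 6 cells the median share of Tuba1a was 69.7%, or 70.3% with each gene taken per kb, and it was 42.9% with the pseudogenes in the total. Since reads of the 3 genes can be exchanged, these shares are uncertain, and whether the mix differed between cells cannot be told.

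Tuba4a, an alpha-tubulin whose gene does not encode the usual terminal tyrosine, was the exception. Its counts in cells 1 to 6 were 7, 1, 0, 1, 3 and 0, or 813, 29.0, 0, 16.4, 133 and 0 CPM. In cell 1 it held 7 of 13 alpha-tubulin counts. The level of cell 1 was 41.0 times (11.2 to 164) that of the other 5 cells pooled, which would have given 0.171 counts. Its exons overlap those of Stk16, a kinase gene on the opposite strand, which held 61.6% of its windows. Stk16 had 12 counts in cell 3 and 0 in the other 5 cells, so it was found only where Tuba4a was at 0 in a deep library. With no strand setting given, reads of this pair cannot be told apart. Tuba3a, Tuba3b and Tuba8 had no count, which allows up to 11.5 CPM each over the 6 cells.

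Beta-tubulin counts lay on several genes, and their shares differed between cells 3 and 4. Cells 1, 2, 5 and 6 had only 11, 13, 8 and 4 beta-tubulin counts. These shares cannot be set against the alpha shares, which are limited by reads that can be exchanged. Tubb4b, an isotype of cilia and many tissues, had 8, 1, 41, 71, 5 and 1 counts in cells 1 to 6, or 929, 29.0, 335, 1166, 222 and 85.3 CPM. Cells 4 and 1 were high, and cell 2 was lowest. Tubb5, the isotype of dividing and young cells, had 0, 7, 6, 47, 0 and 3 counts, or 0, 203, 49.0, 772, 0 and 256 CPM, highest in cell 4. The beta-tubulin sum was 2479 CPM in cell 4 (2100 to 2908) and 1277 CPM in cell 1 (637 to 2285), intervals that overlapped, and at most 449 CPM in the rest. Tubb3 had 1, 3, 4, 15, 2 and 0 counts, or 116, 87.0, 32.6, 246, 88.8 and 0 CPM. Its median level per kb was 47.1 CPM (87.9 CPM), near that of Tubb5 at 47.6 (126 CPM) and below that of Tubb4b at 174 (278 CPM). In plain CPM it was below both, although it is used as a general marker of neurons.

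Tubb2b reached 10 counts in cell 4 (164 CPM) and no more than 1 elsewhere, and Tubb2a reached 7 in cell 4 (115 CPM) and no more than 3 elsewhere. Both encode isotypes of developing neurons, and 65.8% of the windows of Tubb2a occurred in Tubb2b. Tubb6 had 1 count, and Tubb1 and Tubb4a had none. The mix of the beta genes differed between the deep cells, which cannot be set against the alpha genes, whose reads can be exchanged. Tubb4b held 74.5% of beta-tubulin counts in cell 3 (61.0% to 85.3%) and 47.0% in cell 4 (38.9% to 55.3%). Tubb5 held 10.9% (4.11% to 22.2%) and 31.1% (23.9% to 39.2%). Neither pair of intervals overlapped. Over the 6 cells the median share of Tubb4b was 54.8%, with 7.69% the lowest (cell 2, 13 beta-tubulin counts). It was 61.5% per kb and 36.7% with the pseudogenes in the total. As a share of alpha and beta counts, beta-tubulin held 23.0% in cell 3 (17.8% to 28.9%) and 32.2% in cell 4 (28.0% to 36.6%), intervals that overlapped slightly.

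Gamma-tubulin was not found: Tubg1 and Tubg2 had 0 counts in every cell. A floor of 3 counts stands for 24.5 CPM in cell 3 but for 348 CPM in cell 1, and only the deep cells limit these genes closely. Of 11 genes of the gamma-tubulin complex and its anchors, 9 had a count, with a summed median of 292 CPM. Akap9, a large anchoring protein of centrosome and Golgi, was first, with 24 of its 29 counts in cell 3 (196 CPM) and 0 in cell 4, and Nedd1 and Pcnt had 5 and 6 counts over all cells.

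**Figure D3:**
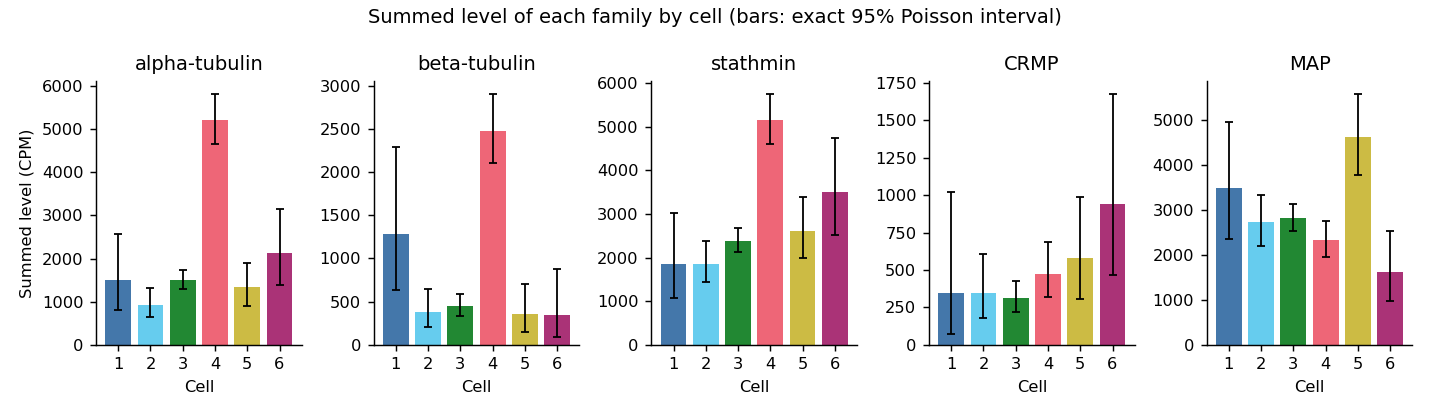
Summed level of the alpha-tubulin, beta-tubulin, stathmin, CRMP and MAP genes in cells 1 to 6, in CPM, with exact 95% Poisson intervals and a separate axis from 0 for each family. Cell 4 was highest for both tubulin families (5222 and 2479 CPM) and for stathmins (5156 CPM), cell 6 for CRMPs (938 CPM) and cell 5 for MAPs (4617 CPM).

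Stathmins summed to a median of 2501 CPM. Cell 2 was lowest with 1856 CPM (1430 to 2370) and cell 4 highest with 5156 CPM (4601 to 5759), although the interval of cell 6 (2509 to 4744) reached that of cell 4. Stmn4, a stathmin of the nervous system bound to Golgi and vesicles, had 12, 17, 116, 120, 11 and 17 counts in cells 1 to 6, or 1393, 493.1, 947, 1970.4, 488 and 1449.9 CPM. Stmn2 (chr3:8509360-8561606, plus strand), also called SCG10 and found in growth cones, had 4, 26, 112, 104, 33 and 7 counts, or 464, 754, 914, 1708, 1465 and 597 CPM. Both were found in every cell. They were highest in cell 4, but cells 1 and 6 were next for Stmn4 and cell 5 for Stmn2.

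The mix within the family differed accordingly. Stmn4 held 41.5% of stathmin counts in cell 6 (26.3% to 57.9%) and 18.6% in cell 5 (9.69% to 30.9%), intervals that overlapped. Stmn2 held 17.1% in cell 6 (7.15% to 32.1%) and 55.9% in cell 5 (42.4% to 68.8%), intervals that did not. In cells 3 and 4 the shares were close, with Stmn4 at 39.7% and 38.2% and Stmn2 at 38.4% and 33.1%. Stmn3 had 0, 13, 59, 56, 11 and 7 counts, or 0, 377, 481, 920, 488 and 597 CPM, and was even in cells 2, 3 and 5.

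Stmn1 (chr4:134468320-134473843, plus strand), the founding stathmin and the one shared with dividing cells, was far more uneven. It had 0, 8, 5, 34, 4 and 10 counts in cells 1 to 6, or 0, 232, 40.8, 558, 178 and 853 CPM. Cells 6 and 4 were high, and cell 3, the deepest library, was lowest of the 5 cells with a count. The other cells, pooled, would have given 49.6 counts at the depth of cell 3, where 5 were found, a ratio of 0.101 (0.0315 to 0.249).

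Gap43, Crmp1 and Dcx were highest in cell 6. Gap43 (chr16:42248442-42340651, minus strand), a growth cone protein of extending axons, had 0, 6, 1, 13, 5 and 8 counts in cells 1 to 6, or 0, 174, 8.16, 213, 222 and 682 CPM. Cell 6 was highest, but its interval (295 to 1344 CPM) overlapped those of cells 2, 4 and 5, which lay together. Cell 3 was far below these cells. The other cells, pooled, would have given 28.4 counts at the depth of cell 3, where 1 was found, a ratio of 0.0352 (8.66e-04 to 0.211). Crmp1, a CRMP that acts in semaphorin signalling, had 0 counts in cells 1 to 3 and 7, 1 and 10 in cells 4, 5 and 6, or 115, 44.4 and 853 CPM. The ratio of cell 6 to the pooled other cells was 26.5 (9.44 to 77.4). Dcx, the doublecortin of migrating and young neurons, had 2, 6, 25, 13, 9 and 8 counts, or 232, 174, 204, 213, 400 and 682 CPM. It was level in cells 1 to 4, though on 2 counts in cell 1. The ratio of cell 6 to the pooled others was 3.09 (1.27 to 6.52). For cell 5 the ratio was 1.76 (0.765 to 3.60), an interval that held 1.

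The other CRMPs did not follow Crmp1. Dpysl2, the CRMP that carries tubulin pairs to growing microtubules, had 2, 7, 23, 8, 5 and 1 counts, or 232, 203, 188, 131, 222 and 85.3 CPM, and was even over the cells. Dpysl5 had 1, 3, 14, 6, 2 and 0 counts, between 87.0 and 116 CPM in cells 1 to 5. Dpysl3 had 2, 8 and 5 counts in cells 2, 4 and 5, or 58.0, 131 and 222 CPM, and 0 elsewhere, cell 3 included. Dpysl4 had 1 count. Of 11 CRMP counts in cell 6, 10 were of Crmp1 and 1 of Dpysl2, against 0 and 23 of 38 in cell 3.

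The MARCKS genes encode membrane-bound proteins that cross-link actin under the growth cone. Marcks had 0, 10, 7, 9, 10 and 5 counts in cells 1 to 6, or 0, 290.0, 57.1, 148, 444 and 426 CPM. Marcksl1 had 1, 10, 0, 19, 3 and 0 counts, or 116, 290.0, 0, 312, 133 and 0 CPM. Cell 3 was lowest of the cells with a count for Marcks and at 0 for Marcksl1. Cell 6 had Marcks without Marcksl1, though 0 counts there allow up to 256 CPM.

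MAPs had another order, with cell 5 highest. Map1b (chr13:99421446-99516540, minus strand), which binds axonal microtubules and is the leading MAP of growing axons, had 24, 76, 242, 100, 81 and 19 counts in cells 1 to 6, or 2786, 2204, 1975, 1642, 3596 and 1620.5 CPM. It was the most even abundant member, with cell 5 highest and cells 4 and 6 lowest. The ratio of cell 5 to the pooled other cells was 1.86 (1.45 to 2.36). Map1a, its relative of mature neurons, had 5, 7, 40, 18, 2 and 0 counts, or 580.5, 203, 326, 296, 88.8 and 0 CPM, highest in cell 1 and low in cell 5. Its last exons overlap Ppip5k1 on the opposite strand, which held 23.5% of its windows and had 37 counts over all cells.

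Map6, which protects stable microtubules from cold, had 1, 5, 31, 18, 8 and 0 counts, or 116, 145, 253, 296, 355 and 0 CPM. Map9 had 5, 18 and 4 counts in cells 2, 3 and 5 (145, 147 and 178 CPM) and 0 in cells 1, 4 and 6. Map7, which recruits kinesin to microtubules, had 12, 4 and 7 counts in cells 3, 4 and 5 (97.9, 65.7 and 311 CPM) and 0 in the others. Tau and the dendritic MAP were nearly absent: Mapt had 3 counts, all in cell 3 (24.5 CPM), Map2 had 4 over all cells and Map4 had 1.

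Cells 3 and 4, the deepest libraries, allow the closest comparison of 1 neuron with another. Tubulins were far lower in cell 3, growth genes were divided, and MAPs were level apart from Map9. Past 2-fold on the log2 scale of CPM + 10, 13 of the 23 members with at least 10 counts over both cells were lower in cell 3, beside 21.7% of the 4326 genes tested alike, and 1 was higher, beside 26.4%. The median log2 difference, cell 3 minus cell 4, was -1.23 over these members and -0.01 over all genes tested. A member can pass this filter through the cell in which it is high. The 13 include Tuba1a, Tuba1b and Tuba1c, whose reads can be exchanged. The other 15 members were not tested: 7 without a count in any cell and 8 with too few.

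The 8 tubulins tested were each past 2-fold lower in cell 3, with a median log2 difference of -1.83. The 4 with the most counts differed by like amounts, but reads of the alpha genes and their pseudogenes can be exchanged. The ratios of these alpha genes and pseudogenes are therefore not separate measurements. The ratio of cell 4 to cell 3 was 3.52 for Tuba1a (95% interval 2.80 to 4.44), 3.44 for Tuba1b (2.27 to 5.28), 3.25 for Tuba1c (1.95 to 5.52) and 3.49 for Tubb4b (2.34 to 5.25). The 9 pseudogenes of the alpha genes had 217 counts in cell 3 and 404 in cell 4, a ratio of 3.75 (3.17 to 4.44). For Tubb5 the ratio was 15.8 (6.73 to 45.1), an interval above those of these 4 genes. The ratios of 7.55 for Tubb3 (2.40 to 31.2), 20.1 for Tubb2b (2.86 to 873) and 4.69 for Tubb2a (1.07 to 28.1) rest on few counts, and their intervals overlapped that of Tuba1a. Summed, tubulins stood at 7701 CPM in cell 4 against 1950.3 CPM in cell 3, a ratio of 3.95 (3.37 to 4.63).

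Among 10 growth genes tested, 5 were past 2-fold lower in cell 3 and none was past 2-fold higher, with a median log2 difference of -0.98. Marcksl1, with 0 counts in cell 3 and 19 in cell 4, was at least 12.7-fold lower in cell 3 when 3 counts are taken as the floor of that cell. This bound takes the 19 counts as exact, and the exact 95% interval of the ratio begins at 9.39. Stmn1 was 13.7 times higher in cell 4 (5.32 to 44.8), and for Gap43, with 1 count in cell 3, the ratio was 26.2 (3.93 to 1112). Marcks had a ratio of 2.59 (0.857 to 8.17), an interval that held 1. Stmn4 was just past 2-fold with a log2 difference of -1.05, and Stmn3 and Stmn2 were just short of it with -0.92 and -0.89. Their ratios of cell 4 to cell 3 were 2.08 (1.60 to 2.71), 1.91 (1.30 to 2.80) and 1.87 (1.42 to 2.46). Crmp1 and Dpysl3, with too few counts to be tested, were at 0 in cell 3 and at 7 and 8 counts in cell 4, at least 4.69-fold and 5.37-fold lower in cell 3 by that floor, with intervals that begin at 2.90 and 3.44. Dcx, Dpysl5 and Dpysl2 had ratios of 1.05 (0.492 to 2.12), 0.862 (0.272 to 2.39) and 0.700 (0.271 to 1.62), so that differences within these intervals were not detectable at this depth.

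Of 5 MAPs tested, none was past 2-fold lower in cell 3. Map9 was past 2-fold higher, with 18 counts against 0, which makes it at least 2.98-fold higher at the floor of cell 4, with an interval that begins at 2.19. Map1b had a ratio of cell 3 to cell 4 of 1.20 (0.949 to 1.53), Map1a of 1.10 (0.619 to 2.05), Map6 of 0.856 (0.464 to 1.62) and Map7 of 1.49 (0.452 to 6.34). The 8 MAP genes summed to 2823 CPM in cell 3 against 2332 CPM in cell 4, and their ratio of cell 4 to cell 3, 0.826 (0.674 to 1.01), lay below the whole interval of the tubulins.

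**Figure D4:**
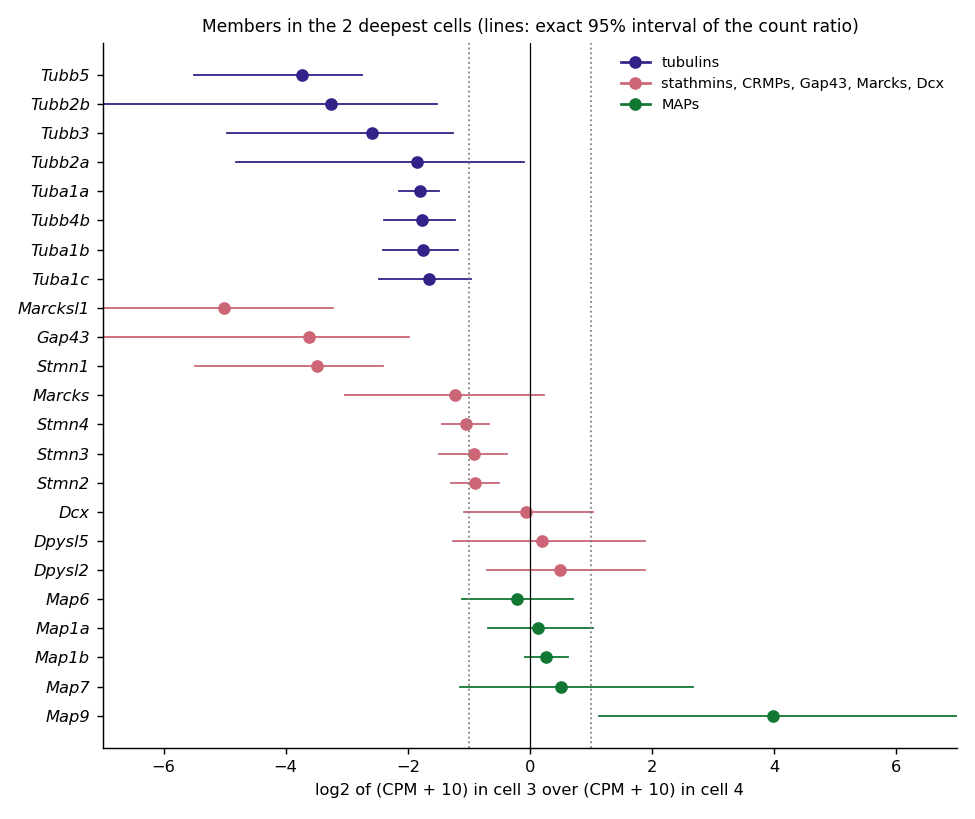
Difference between cells 3 and 4 for the 23 members with at least 10 counts over both, as log2 of (CPM + 10) in cell 3 over cell 4 (points), with the exact 95% interval of the plain count ratio (lines, ending at the frame where the bound is beyond it) and dotted lines at 2-fold. The 8 tubulins lie left of -1, the growth genes run from -5.01 for Marcksl1 to 0.48 for Dpysl2, and 4 of 5 MAPs lie within 2-fold.

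Other features differed between cells 3 and 4, and their part in these differences was not tested. Of the 14 mature neuron markers, 7 were past 2-fold higher in cell 3, beside 26.4% of all genes, and none lower. Immature neuron markers outside the member list summed to 563 CPM (cell 3) and 985.2 CPM (cell 4), between 232 and 844 CPM in the others. Of the 5 tested, 4 were past 2-fold lower in cell 3, beside 21.7% of all genes, among them Sox11 and Dbn1, and Lhx2 was past 2-fold higher. Red blood cell markers, 4 of 5 found and Alas2 at 0, stood at 12610 CPM (cell 4) and 4080.1 CPM (cell 3), and were lowest in cell 6 with 171 CPM. Sustentacular cell markers, 8 of 10 found with Cyp1a2 and Ugt2a1 at 0, stood at 237 CPM (cell 3) and 690 CPM (cell 4), and between 85.3 CPM (cell 6) and 957 CPM (cell 2) in the others. Gland markers, 8 of 12 found with Bpifb4, Sox10, Muc5b and Lyz2 at 0, stood at 963 CPM (cell 3) and 394 CPM (cell 4). They reached 32136 CPM in cell 2. Markers of basal cells, the progenitors of the epithelium, had 1 count in cell 3 and 4 in cell 4, with Krt5, Krt14, Trp63 and Kit at 0 in all cells. Platelet markers, from cells rich in Tubb1, had 1 count in all, in cell 1.

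When each cell was set against the mean of the other 5, 27 members had a mean of at least 10 CPM, a level that a gene can reach through 1 cell alone. In cell 4, 14 of the 27 were past 2-fold higher, beside 25.3% of all 9760 genes with such a mean. They included 8 of 9 tubulins and 6 of 12 growth genes but 0 of 6 MAPs. In cell 6, 5 of the 27 were past 2-fold higher, a share near the 17.2% of all genes. These were Crmp1, Gap43, Stmn1, Dcx and Marcks, 5 of the 12 growth genes, while 4 other growth genes (Marcksl1, Dpysl5, Dpysl3 and Dpysl2) were past 2-fold lower there. In cell 5, 6 of the 27 were past 2-fold higher, a share near the 24.4% of all genes. They included the MAPs Map7, Map2, Map9 and Map6, on 7, 2, 4 and 8 counts, while Map1a was past 2-fold lower. In cell 1, 5 were past 2-fold higher, beside 16.8%, namely Tuba4a, Map1a, Tubb2a, Tubb4b and Tubb2b. Tubb2a and Tubb2b had 1 count each there. Cells 2 and 3 had 2 and 1 members past 2-fold higher, beside 14.5% and 19.3%. Members past 2-fold lower numbered 13 in cell 1, beside 69.9% of all genes, 7 in cell 2 (44.6%) and 11 in cell 3 (29.9%). Cell 4 had 2 (34.4%), Map9 and Tuba4a, while cells 5 and 6 had 7 (44.7%) and 14 (72.2%). Cell 6 had 8 counts in all of immature neuron markers outside the member list, all of them of Lhx2 (682 CPM). Its mature neuron markers summed to 36077 CPM, but only 8 of the 14 were found, with Cnga2 and Cnga4 among those at 0. Each of the other 5 cells had all 14.

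Genes that fold, modify and cut tubulin were called in both directions between cells 3 and 4. The shares of all genes tested, 26.4% higher and 21.7% lower in cell 3, are the background for these counts, and with 9 to 13 genes tested per list nothing is read from them. Of 21 tubulin folding genes 20 were found, with a summed median of 1610 CPM, and of 13 tested 5 were past 2-fold higher and 4 lower in cell 3. The chaperonin subunits Cct6a, Cct2 and Cct5 led with medians of 169, 152 and 108 CPM. Of 27 tubulin modification genes 21 were found, with a summed median of 1892 CPM, and of 9 tested 3 were past 2-fold higher and 2 lower in cell 3. Ttll7, a ligase that adds glutamate to tubulin tails, led with a median of 443 CPM (341 to 622). Agtpbp1, the enzyme that removes such glutamates, followed with 427 CPM (230 to 768), and the deacetylase Sirt2 with 191 CPM.

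Of 24 genes for severing and end binding 22 were found, with a median of 1748 CPM, and of 10 tested 2 were past 2-fold higher and 2 lower in cell 3. Dclk1, a doublecortin-like kinase, led with a median of 259 CPM and, like Dcx, was highest in cell 6 (768 CPM). Mtcl1, a microtubule cross-linker, had a median of 223 CPM. Nav1, a plus-end protein of neurons, stood at 1297.5 CPM in cell 3, on 159 counts, but at 115 CPM in cell 4, on 7. Of 31 growth cone genes 30 were found, with a median of 10798 CPM. Of 23 tested, 11 were past 2-fold lower in cell 3, beside 21.7% of all genes, and 2 were higher. Ncam1, an adhesion molecule of axons, had a median of 1859 CPM (1161 to 2974), the membrane protein Rtn1 1573 CPM (1084 to 4350), highest in cell 6, and Actb 1524 CPM (348 to 1643).

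Promoter sequence is shown for the beta-tubulins Tubb4b and Tubb5, which were both higher in cell 4 and whose shares of the family differed between cells 3 and 4. RefSeq promoter entries were matched to 25 of the 38 members, with 29 starts in all. The 250 bases before each start are given, from RefSeq on GRCm38.p6, with capitals marking CCAAT boxes (CCAAT) and GC boxes (GGGCGG) on either strand, and here all matches were on the strand printed.
Tubb4b (chr2:25224703-25224952, minus strand): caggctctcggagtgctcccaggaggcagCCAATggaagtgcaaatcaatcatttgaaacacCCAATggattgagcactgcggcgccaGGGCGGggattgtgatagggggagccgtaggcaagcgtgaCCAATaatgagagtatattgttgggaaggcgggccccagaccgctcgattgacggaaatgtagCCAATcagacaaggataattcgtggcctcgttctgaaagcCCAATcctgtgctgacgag
Tubb5 (chr17:35838302-35838551, minus strand): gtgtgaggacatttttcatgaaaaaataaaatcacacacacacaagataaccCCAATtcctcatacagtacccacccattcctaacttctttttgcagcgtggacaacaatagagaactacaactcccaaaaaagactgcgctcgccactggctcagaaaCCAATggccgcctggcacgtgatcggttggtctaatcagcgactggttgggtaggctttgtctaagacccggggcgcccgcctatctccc
Tubb4b held 5 CCAAT boxes and 1 GC box, and Tubb5 held 2 and 0. Of the 14 tubulin starts, 7 held a CCAAT box and 7 a GC box, beside 33.8% and 32.7% of the 32817 promoters of this length. The site of EBF factors (CCCNNGGG), which act in olfactory neurons, was found in 2 of the 14, beside 11.8% of all, and the homeodomain site TAATTA in none, beside 4.84%. A match describes these letters and does not show that a factor bound there.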

How the data were processed

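The authors deposited raw counts, whole numbers for each gene symbol in 6 columns that map to the 6 cells. Per the labels, CEL-Seq2 libraries carried molecular identifiers and the second read alone was aligned. Tools and build, per the submitters' processing notes, were Bowtie2 2.3.4, HTSeq, CASAVA and mm10, with no roles stated. How identifiers were collapsed, reads with several alignments treated and strand used, and with which annotation, is not given in the sources used here. A count may be a read or a molecule.

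CPM used all counts of a cell. Counts have exact 95% Poisson intervals, shares Clopper-Pearson intervals and ratios conditional binomial intervals. Ratios for calls used a pseudocount of 10 CPM. A count of 0 was set to a floor of 3 counts only for fold bounds and detection limits, and stayed 0 elsewhere. Positions and transcripts came from GENCODE M21, whose assembly mm10 names. Members with at least 10 counts are given per cell, and of each pathway list the 3 genes with the highest median. Members, lists and comparisons were chosen with earlier results of these data known. Python 3.11.15, scipy 1.17.1 and Biopython 1.88 were used. A call past 2-fold is no test, and a gene of few counts can pass it within counting error.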

Additional observations from a re-analysis of the deposited data

Results flagged for a closer look

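In 10 of 37 quantities looked at, 1 of the 6 cells lay farther from the rest than Dixon's limit of 0.625 for its gap over the range. Chance alone flags about 1 in 20 groups of normal values with equal spread. CPM from libraries of such unequal depth need not meet that, so the chance rate here is unknown. The quantities also share cells and genes. Cell 4 was the high cell for Tuba1b (1067 CPM, median 174), Tuba1c (690 CPM, median 143), Tubb5 (772 CPM, median 126), the alpha-tubulin sum (5222 CPM, median 1505) and the tubulin sum (7701 CPM, median 2212). Cell 6 was the high cell for Crmp1 (853 CPM, median 22.2) and Gap43 (682 CPM, median 194), and the low cell for Dpysl5 (0 CPM, median 93.7), where 1 count is worth 85.3 CPM. Cell 1 was the high cell for Tuba4a (813 CPM, median 22.7), on 7 counts. Cell 5 was the high cell for Map7 (311 CPM, median 32.8), also on 7 counts.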

How the results depend on the processing

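No paired analysis was possible because the 6 cells form 1 group. The 3 other scalings of the counts left 13 members past 2-fold lower and 1 higher in cell 3 than in cell 4. They could hardly change these numbers, as the median log2 difference over all genes tested lay between -0.009 and 0.022 under all scalings. None of the 26 members' median levels moved by more than their spread between cells, a wide limit that shows little. The number of members lower in cell 3 was 6 at a 4-fold limit and 7 with at least 20 counts over both cells. The number higher was 0 with at least 20 counts and 2 with at least 1. The 8 members found in all cells became 4 at 3 counts, 5.19 when each cell was reduced to the depth of cell 1, 18 without the 2 shallowest cells (an alternative added after the data were seen), and 8 to 13 with 1 cell left out. With pseudogenes in the family total, also added after the data were seen, the median share was 42.9% for Tuba1a and 36.7% for Tubb4b, against 69.7% and 54.8%. The ratio of cell 3 to cell 4 was 0.253 for tubulins and 0.260 with the pseudogenes. Cells 1 and 6, with 8613 and 11725 counts, limit any gene under 348 and 256 CPM.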
